A study of Homo sapiens with 4 samples.

Results

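The superoxide dismutase genes SOD2, SOD1 and SOD3 were examined for open chromatin in LM2 cells, a metastatic human breast cancer line derived from MDA-MB-231 that colonises the lung readily. The members were 29 of the 190348 peaks of the deposited count table: 21 inside SOD2 or within 100 kb of its ends on chromosome 6, 3 inside or within 10 kb of SOD1 on chromosome 21, and 5 inside or within 10 kb of SOD3 on chromosome 4 (GRCh38). The peaks were chosen by position among peaks that the authors called on these same libraries, and SOD2 was picked with earlier results of these libraries known. Counts of lower and higher peaks and adjusted p-values are therefore given for these loci as a description and are no independent support for a direction. Accessibility was measured by ATAC-seq, in which the Tn5 transposase cuts and tags open DNA, in 2 libraries of cells carrying a CECR2 deletion, here called sg1 after their guide, and in 2 libraries of cells carrying a non-targeting guide, here called control. Both groups are the same line, only 1 deletion guide was analysed here, and the labels do not say whether the sg1 cells were 1 clone or a pool, nor whether the replicates of a group were grown apart. The p-values thus reflect only the scatter among these 4 libraries, and that scatter may be technical.

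Superoxide dismutases turn superoxide, a by-product of respiration and a product of NADPH oxidases, into hydrogen peroxide, which catalase, glutathione peroxidases and peroxiredoxins then remove. SOD2 encodes the manganese enzyme of the mitochondrial matrix, SOD1 the copper and zinc enzyme of the cytosol, and SOD3 the copper and zinc enzyme secreted into the extracellular space. SOD2 is known for its induction by inflammatory cytokines through the transcription factor NF-kB, in part through an enhancer inside the gene, while SOD1 is known as a broadly and steadily expressed gene. CECR2, the deleted gene, encodes a bromodomain protein that partners ISWI chromatin remodellers.

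The SOD2 gene spans 159669069 to 159762281 on chromosome 6 and is read on the minus strand, so that upstream means towards higher coordinates. RefSeq (GRCh38.p14) lists 4 start sites for it. The internal start, at 159693241, lies under a tall peak. Starts at 159726950 and 159727384 lie beside the starts of WTAP, a gene inside the span of SOD2 that encodes a subunit of the RNA methyltransferase complex, and the far start at 159762281 lies beside ACAT2, which encodes a cytosolic thiolase. The 250 bases before the internal start of SOD2 (chr6:159693242-159693491, minus strand) and before the start of SOD3 (chr4:24795323-24795572, plus strand) are shown because the peaks over them are the start-site peaks compared below. Capitals mark matches to the GC box GGGCGG, on either strand.
SOD2 internal start: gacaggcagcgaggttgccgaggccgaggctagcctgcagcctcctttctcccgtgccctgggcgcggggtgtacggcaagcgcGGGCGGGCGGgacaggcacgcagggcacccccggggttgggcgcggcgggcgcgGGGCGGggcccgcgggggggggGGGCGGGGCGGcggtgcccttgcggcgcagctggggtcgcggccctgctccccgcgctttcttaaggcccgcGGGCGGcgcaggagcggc
SOD3 start: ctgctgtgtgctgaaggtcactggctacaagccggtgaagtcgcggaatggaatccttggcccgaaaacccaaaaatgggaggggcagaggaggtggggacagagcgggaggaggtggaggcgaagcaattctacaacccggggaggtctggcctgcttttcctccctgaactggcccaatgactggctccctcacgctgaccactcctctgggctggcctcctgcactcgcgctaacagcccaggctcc
The SOD2 stretch was 80.8% G or C and held 6 GC boxes, with 2 overlapping pairs among them, whereas the SOD3 stretch was 61.6% G or C and held 0. Of 35097 RefSeq windows of the same length, 42.6% held a GC box, and their median content of G or C was 58.0%. The motifs of AP-1 (TGANTCA, in 6.57% of windows), of the antioxidant response element (TGACNNNGC, 10.9%) and of NF-kB (9.95%), read on both strands, had 0 matches in either stretch. The windows before the other 3 SOD2 starts held 1, 4 and 1 GC boxes from the lower to the higher coordinate and likewise 0 of the other motifs.

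Around SOD2, 11 of the 15 peaks away from start sites and gene ends were called lower by edgeR in the cells with the CECR2 deletion. The peaks over the internal start and over the starts shared with WTAP were at nearly the same level in both groups. The peak over the far start was called lower by a smaller amount (log2 fold change -0.33). Of the 21 peaks, all of which passed the filter on low counts, 14 were lower in sg1 and 0 were higher in edgeR's quasi-likelihood test at a false discovery rate of 0.05. The background was large: 16.8% of the 184717 tested peaks were lower and 11.5% higher. Without sg1 replicate 1 the count of lower peaks was 9 and without sg1 replicate 2 it was 8. An unadjusted p under 0.05 gave 14 lower and 0 higher. By DESeq2, 9 were lower and 0 higher, against 10.4% and 4.93% of the peaks it tested. The median log2 fold change (sg1 over control) was -0.60 over the 21 peaks, with a range of -3.52 to 0.93, and 0.02 over all tested peaks. Both sg1 libraries lay below both control libraries at 16 of the 21 peaks and above them at 1, against 31.9% and 31.8% of all tested peaks.

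The peaks divided by place. Levels below are CPM, the cut sites of a peak scaled to a common library size with TMM factors, with sg1 replicates 1 and 2 and then control replicates 1 and 2. The 6 peaks at a SOD2 start site or at the end of a protein-coding gene summed to 119.6 and 128.1 CPM in the sg1 libraries, against 133.2 and 141.7 CPM in the control libraries, and 3 of them were lower (median log2 fold change -0.16). The 15 other peaks summed to 48.93 and 55.70 CPM in sg1, against 90.96 and 87.93 CPM in control, and 11 of them were lower (median -1.22). In the whole table the share of lower peaks was 7.28% at ends of protein-coding genes, where 21.2% were higher, and 18.2% away from them, where 10.1% were higher. These shares were split by gene ends alone, without start sites. The peak over the internal start of SOD2 thus counts there among the peaks away from ends. Inside SOD2 itself, 7 peaks lay away from start sites and gene ends, and 6 of these were lower, and DESeq2 called the same number. Their sum was 30.54 and 35.86 CPM in sg1, against 63.45 and 62.42 CPM in control.

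**Figure D1:**
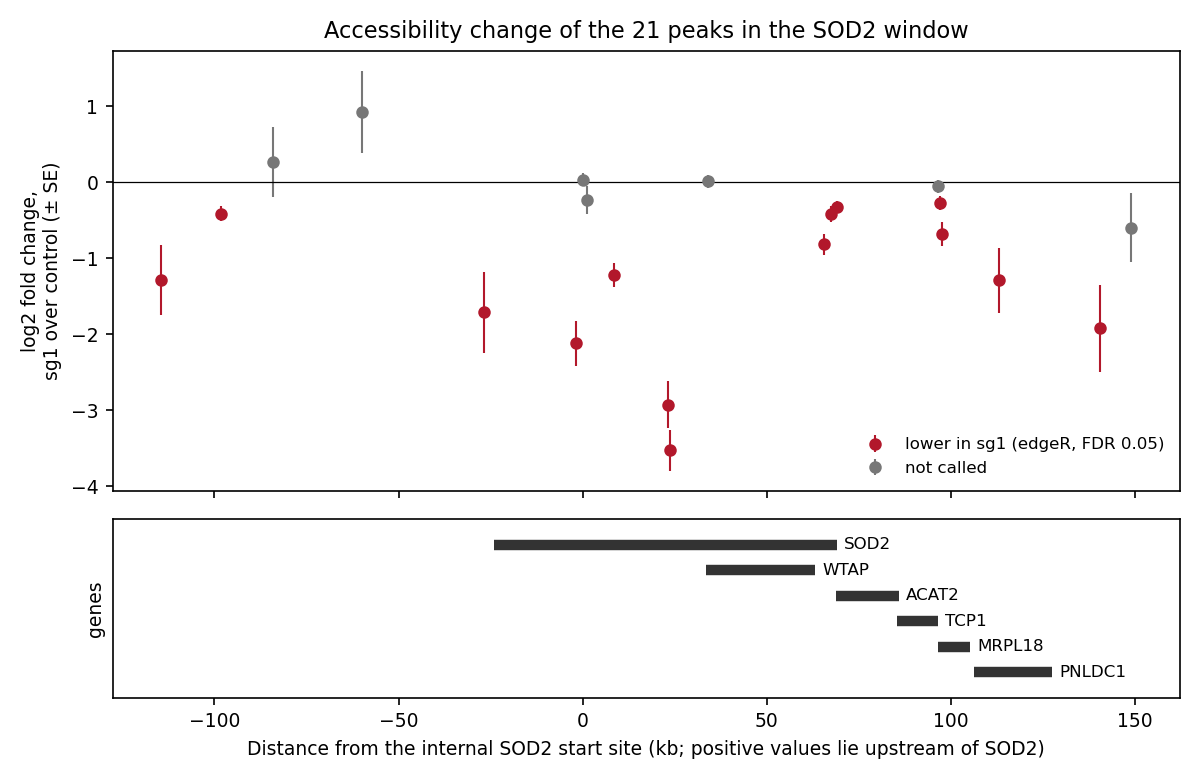
Log2 fold change (sg1 over control, y axis) of the 21 peaks of the SOD2 window by distance from the internal start of SOD2 in kb (x axis, positive upstream), with bars for the SE, red for peaks lower in sg1 and the protein-coding genes drawn below. The lowest points, at -3.52 and -2.92, lie next to each other about 23 to 24 kb upstream, and the peaks over the start sites lie near 0 or just under it.

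The largest fall was at a pair of peaks inside the SOD2 gene, 20 bases apart. The peak at 159716753 to 159717188, 23.7 kb upstream of the internal start, had 0.678 and 0.431 CPM in the sg1 libraries, against 7.10 and 5.81 CPM in the control libraries. The raw counts were 30 and 17 in sg1 and 146 and 89 in control. Every sg1 value was thus far under the lower control value, although the sg1 libraries were the deeper ones. The log2 fold change was -3.52 (SE 0.27, adjusted p = 3.65e-12), a level 91.3% lower, which placed the peak at percentile 0.193 of all tested peaks by fold change. Its neighbour at 159716202 to 159716732 had 0.814 and 0.330 CPM in sg1, against 4.28 and 4.63 CPM in control (log2 fold change -2.92, SE 0.31, adjusted p = 5.93e-09). Set against the peak over the internal start within each library, the level of the first of the pair was 0.0272 and 0.0154 of it in sg1 and 0.289 and 0.212 of it in control, a ratio that needs no scaling factor between libraries.

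Closer to the internal start, a peak 1.94 kb downstream, inside the gene at 159691155 to 159691438, had 0.633 and 0.862 CPM in sg1, against 3.45 and 3.001 CPM in control (log2 fold change -2.12, SE 0.30, adjusted p = 1.37e-06). A stronger peak 8.53 kb upstream, at 159701389 to 159702145, had 4.14 and 5.22 CPM in sg1, against 12.1 and 9.46 CPM in control (log2 fold change -1.22, SE 0.16, adjusted p = 4.14e-07). At both, the groups did not overlap. Between these 2 peaks lay the internal start. The peak over it, at 159692568 to 159693937, had 24.9 and 28.0 CPM in sg1, against 24.6 and 27.3 CPM in control. The groups interleaved, and the log2 fold change was 0.0315 (SE 0.09, adjusted p = 0.822). With 1102 and 1103 counts in sg1 and 505 and 419 in control this was a deeply counted peak. A smaller peak directly upstream of it, at 159693997 to 159694565, had 4.41 and 5.91 CPM in sg1, against 5.45 and 6.78 CPM in control, which also overlapped (log2 fold change -0.24, SE 0.18, adjusted p = 0.359).

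Further upstream the levels of the start-site peaks differed. The peak that covers the starts of SOD2 and WTAP, at 159726486 to 159728126, had 25.5 and 29.0 CPM in sg1, against 25.8 and 28.3 CPM in control (log2 fold change 0.0145, SE 0.09, adjusted p = 0.922). The far start shared with ACAT2, at 159761811 to 159762585, was the tallest gene-end peak of SOD2 and had 25.3 and 24.9 CPM in sg1, against 31.0 and 32.03 CPM in control. This was a small fall with no overlap between groups (log2 fold change -0.33, SE 0.08, adjusted p = 0.00192; DESeq2 adjusted p = 0.0177), and without sg1 replicate 2 it was no longer called (adjusted p = 0.0551). Just downstream of it, a peak at 159760539 to 159761014 inside the SOD2 overlapping transcript SOD2-OT1 had 13.1 and 14.7 CPM in sg1, against 18.6 and 18.6 CPM in control (log2 fold change -0.42, SE 0.10, adjusted p = 0.00202). The last peak of this group, at 159758601 to 159759050, had 6.76 and 8.37 CPM in sg1, against 12.5 and 14.2 CPM in control, and the groups did not overlap (log2 fold change -0.82, SE 0.13, adjusted p = 1.56e-05).

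**Figure D2:**
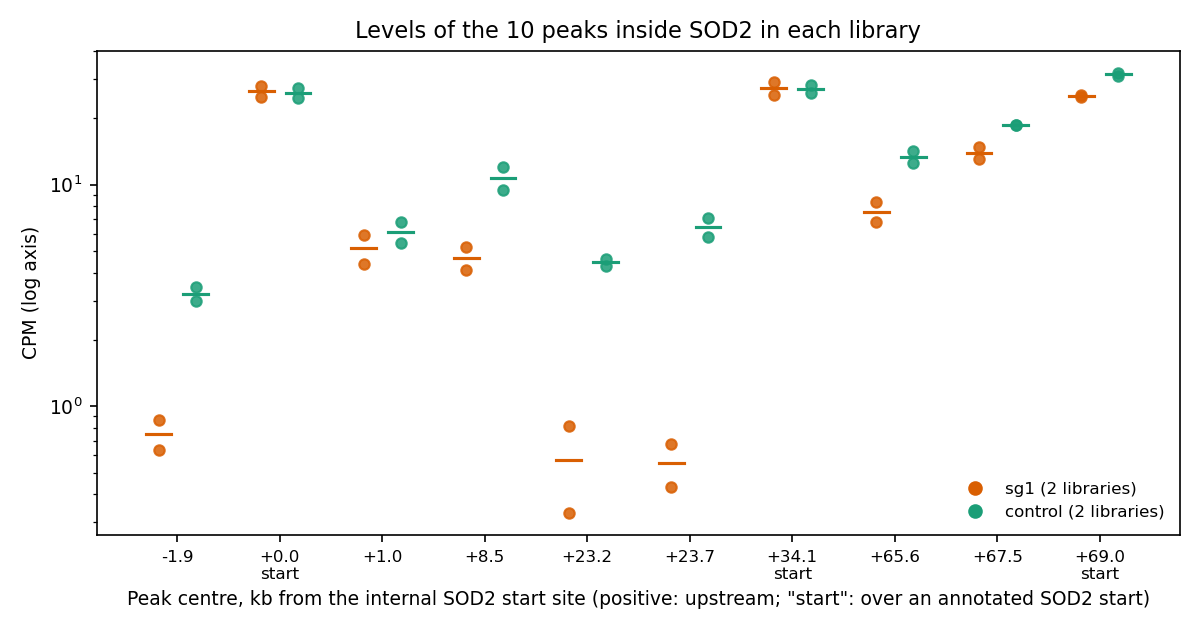
CPM of the 10 peaks inside SOD2 in each library (log y axis), in order along the gene and labelled with their distance from the internal start in kb (x axis, positive upstream), with a point for each library of sg1 and control and a bar at the mean. The sg1 points lie under the control points at the pair of peaks about 23 to 24 kb upstream, at 0.431 to 0.678 CPM against 5.81 to 7.10 CPM for the farther one, and among them at the internal start.

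Outside the gene, the taller peaks had log2 fold changes between -0.68 and -0.053. The peak over the starts of TCP1, a chaperonin subunit gene, and MRPL18, a mitochondrial ribosomal protein gene, had 21.7 and 21.7 CPM in sg1, against 23.1 and 21.9 CPM in control (log2 fold change -0.053, SE 0.09, adjusted p = 0.694). A pair of peaks inside MRPL18 was lower. The one at 159790128 to 159790589 covers a further start of MRPL18, at 159790467. It had 16.8 and 18.3 CPM in sg1, against 20.8 and 21.6 CPM in control (log2 fold change -0.27, SE 0.09, adjusted p = 0.0285). It was not called in 5 of 11 refits, DESeq2 among them, with adjusted p from 0.0692 to 0.346 in those 5. The one at 159790609 to 159791013 had 5.33 and 6.19 CPM in sg1, against 7.97 and 10.6 CPM in control (log2 fold change -0.68, SE 0.16, adjusted p = 0.00146). On the other side of the gene, the peak at 159594333 to 159595647, in the long noncoding gene LOC105378085, had 15.2 and 16.9 CPM in sg1, against 21.98 and 20.5 CPM in control (log2 fold change -0.41, SE 0.10, adjusted p = 0.00127). The 4 remaining lower peaks were weak, with at most 27 counts in any library, and DESeq2 called none of these 4. They start at 159578686, 159666305, 159806101 (in PNLDC1, which encodes an RNA exonuclease) and 159833664, and had log2 fold changes of -1.28, -1.71, -1.29 and -1.92. The 3 other uncalled peaks, starting at 159609059, 159633278 and 159842107, were under 1 CPM in every library. They had log2 fold changes of 0.27, 0.93 and -0.60 and adjusted p between 0.205 and 0.712.

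The edges of the window were read from the same edgeR fit. The last peaks inside it start at 159578686 (90.1 kb from the gene, log2 fold change -1.28) and 159842107 (79.8 kb, -0.60). The nearest outside start at 159488100 (180.7 kb, log2 fold change -1.74) and at 159863324 (101 kb, -0.07). The first of these was called lower (edgeR adjusted p = 0.00408), and the second was not called.

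Of the 14 lower peaks, 6 were lower in all 11 refits under other settings, and 5 of these 6 were the peaks inside SOD2 that start at 159691155, 159701389, 159716202, 159716753 and 159758601. The sixth was the peak at 159790609 in MRPL18. After the sg1 libraries were thinned to the mean depth of the controls, 11 of the 14 were lower. Over all peaks, thinning took the count of lower peaks from 31041 to 24972, so this retention was not particular to SOD2.

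The other superoxide dismutases had 8 peaks, 0 of them lower and 1 higher, against 16.8% and 11.5% of all tested peaks. With 8 peaks, these counts cannot be set apart from those shares. Their windows were also narrower than that of SOD2, at 10 kb against 100 kb. Within 50 kb, 2 of 17 peaks were lower and 4 higher. Without adjustment 0 of the 8 were lower and 1 was higher at p under 0.05, and DESeq2 called 0 of the 8 in either direction. The peak over the SOD1 start, at 31659231 to 31660405 on chromosome 21, had 16.8 and 18.5 CPM in sg1, against 15.2 and 16.8 CPM in control (log2 fold change 0.15, SE 0.10, adjusted p = 0.282). Both sg1 values lay above both control values, though the nearest, 16.84 CPM in sg1 and 16.76 CPM in control, were almost equal. Its neighbours at 31656203 and 31660412 had log2 fold changes of -0.10 and 0.08. The SOD3 start peak, at 24794870 to 24795682 on chromosome 4, had 33.1 and 31.4 CPM in sg1, against 37.1 and 32.7 CPM in control, which overlapped (log2 fold change -0.12, SE 0.08, adjusted p = 0.261). Flanking peaks at 24794484, 24795723 and 24795943 had log2 fold changes of -0.25, 0.19 and 0.46 and were not called. The 1 higher peak, at 24809443 to 24809642 within CCDC149 and 8.6 kb past the end of SOD3, had 30 and 23 counts in sg1, against 1 and 6 counts in control, or 0.678 and 0.583 CPM against 0.0486 and 0.391 CPM (log2 fold change 1.65, SE 0.63, adjusted p = 0.0473; DESeq2 adjusted p = 0.299). Just outside these windows, the nearest peaks lay 29.1 and 45.1 kb from SOD1, with log2 fold changes of 0.80 and -0.39. Those nearest to SOD3 lay 24.9 and 49.8 kb away, with log2 fold changes of -0.13 and 0.95. In the same edgeR fit, the peaks 29.1 kb from SOD1 (adjusted p = 0.0214) and 49.8 kb from SOD3 (adjusted p = 0.0141) were called higher. The others were not called.

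**Figure D3:**
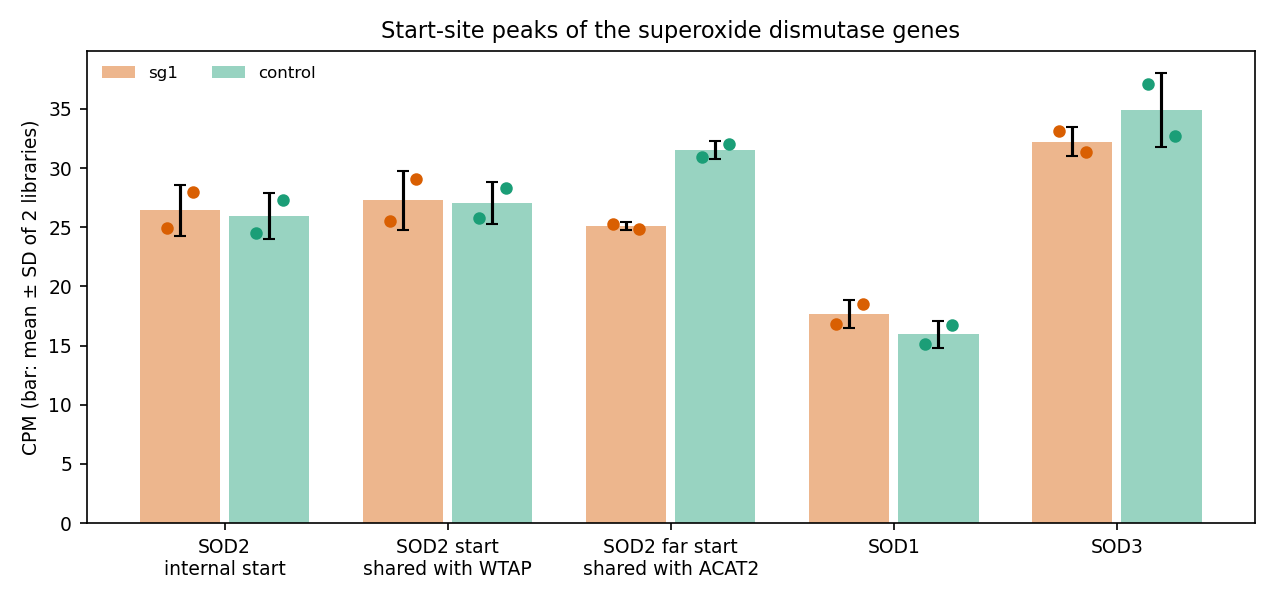
CPM of the start-site peaks of SOD2, SOD1 and SOD3 (y axis), with bars for the mean and error bars for the SD of 2 libraries in sg1 and in control, and points for single libraries. The groups stand apart at the far start of SOD2, at 25.1 ± 0.307 CPM in sg1 and 31.5 ± 0.748 CPM in control, and overlap at its other 2 start peaks and at SOD3.

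Per kb of peak, the SOD3 start was the most accessible of these peaks, with 39.6 ± 1.49 CPM per kb in sg1 and 42.9 ± 3.84 in control (SD, n = 2 per group). The far start of SOD2 followed with 32.4 ± 0.396 CPM per kb in sg1 and 40.6 ± 0.965 in control. In sg1 these 2 differed by more than their SDs, and in control they did not. The internal start of SOD2 had 19.3 ± 1.58 CPM per kb in sg1 and 18.9 ± 1.43 in control, the start shared with WTAP 16.6 ± 1.52 in sg1 and 16.5 ± 1.07 in control, and SOD1 15.0 ± 0.993 in sg1 and 13.6 ± 0.960 in control. Among the last 3 in sg1, each differed from the next by less than their SDs added together. In control this held for the 2 SOD2 starts, while SOD1 lay below the start shared with WTAP by more than that. SOD1 lay below the internal start of SOD2 by more than the added SDs in both groups. Within each library the log2 ratio of the far SOD2 start to the SOD1 start was 0.588 and 0.428 in sg1, against 1.03 and 0.934 in control, a difference of -0.47. An exact two-sided permutation test over the 4 libraries gave p = 0.333, the smallest that 2 against 2 allows. With the internal start in its place the log2 ratio was 0.565 and 0.597 in sg1, against 0.695 and 0.705 in control, a difference of -0.12 (exact permutation p = 0.333). This test cannot pass a threshold of 0.05 with 2 libraries a group.

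The enzymes that work beside the dismutases were described by 1 peak a gene, the tallest of those within 1 kb of either end. Among the peaks so chosen for 14628 genes, 8.94% were lower and 30.6% higher, with a median log2 fold change of 0.15. Of 37 antioxidant enzymes and dismutase partners, 36 had such a peak, with a median of 0.14. Among them 2 were lower and 10 were higher. Their shares, 5.56% and 27.8%, were close to the background. By the gene-end peak with the smallest p in place of the tallest, 7 were lower (19.4%, against 11.6% of all genes) and 10 higher (27.8%, against 34.4%). By DESeq2, 2 were lower and 4 higher, against 789 lower and 2543 higher among the 14628 genes. The higher members with the smallest p were SRXN1, which repairs oxidised peroxiredoxins (log2 fold change 0.52), and the peroxiredoxin genes PRDX2, PRDX3 and PRDX5 (0.56, 0.41 and 0.33). The peaks of PRDX2 and PRDX5 lie at an end of THSD8 and TRMT112 too. PRDX3, the peroxiredoxin of the mitochondrial matrix, which removes the peroxide that SOD2 makes, had 24.2 and 27.1 CPM in sg1, against 18.5 and 20.1 CPM in control, with no overlap (SE 0.09, adjusted p = 0.00077). The lower members were GLRX5, a mitochondrial glutaredoxin of iron and sulphur cluster assembly (log2 fold change -0.38), and NQO1, a quinone reductase (-0.33). CCS, SIRT3 and CAT were named for their link to the dismutases rather than by rule, and were not called. They encode the copper chaperone of SOD1, the deacetylase that activates SOD2, and catalase, and had log2 fold changes of 0.04, 0.20 and -0.16. These 3 do not stand for the list. In it FOXO3 (log2 fold change 0.35, edgeR adjusted p = 0.019) and PPARGC1A (0.34, edgeR adjusted p = 0.0126), for example, were called higher, though not by DESeq2. The peaks of CCS and SIRT3 lie at an end of CCDC87 and PSMD13 too.

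Genes that make superoxide were read in the same way. Of 14 genes of NADPH oxidases, their subunits and xanthine dehydrogenase, 7 had a tested gene-end peak, with a median of 0.10, and 0 of these were lower and 2 were higher, a share of 28.6% against the background of 30.6%. An unadjusted p under 0.05 and DESeq2 gave the same counts, 0 and 2. Among all 14628 genes, an unadjusted p under 0.05 gave 1697 lower and 5724 higher, and DESeq2 gave 789 and 2543. The 2 members were NCF1 (log2 fold change 0.44, adjusted p = 2.63e-05), an organising subunit whose near-identical pseudogene copies make its reads uncertain, and NOXA1 (0.57), an activator subunit that shares its peak with EXD3.

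SOD2 was also set beside 34 other NF-kB targets. At the tallest gene-end peak, 22 of the 32 tested were lower (68.8%) and 2, BCL3 and TRAF1, were higher (6.25%), with a median of -0.37. Over all genes 8.94% were lower and 30.6% higher. DESeq2 called 18 lower and 1 higher in the list, against 789 lower and 2543 higher among the 14628 genes. This list had been seen to be lower in these libraries before, so it is no independent evidence. The lower members with the smallest p were TNIP1 (log2 fold change -1.65), BCL2A1 (-1.92), IL1B (-2.29) and MMP9 (-3.10), which encode an inhibitor of NF-kB signalling, a survival factor, a cytokine and a gelatinase. MMP9 had 1.20 and 0.812 CPM in sg1, against 8.85 and 8.55 CPM in control. Read in the same way, by its tallest gene-end peak, SOD2 had a log2 fold change of -0.33. That peak lies over the far start shared with ACAT2. The peaks over the internal start and over the starts shared with WTAP had 0.03 and 0.01 and were not called. Of the 5 other protein-coding genes of the SOD2 window, ACAT2 was lower through the peak it shares with SOD2, WTAP, TCP1 and MRPL18 were not called, and PNLDC1 had no gene-end peak.

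**Figure D4:**
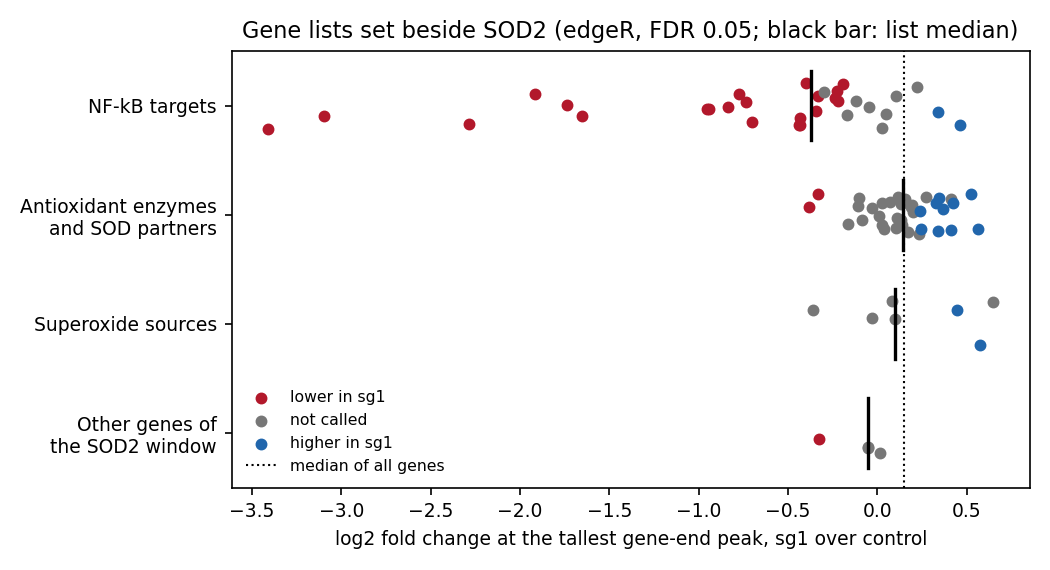
Log2 fold change (sg1 over control, x axis) at the tallest gene-end peak for the genes of 4 lists (rows), coloured by the edgeR call, with a bar at the list median and a dotted line at the median of all genes. NF-kB targets centre at -0.37, antioxidant genes at 0.14, next to 0.15 for all genes.

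The genes whose tallest gene-end peak moved most like that of SOD2 across the 4 libraries were SIRT4, BTN2A2, IL6, UBXN4 and WARS1. Likeness was the Euclidean distance of centred log2 CPM, from 0.0189 to 0.0253, among 8602 genes within 2-fold of its mean level. The SOD2 peak matched was the one over the far start shared with ACAT2, at a log2 fold change of -0.326. In the order named, these genes had log2 fold changes of -0.323, -0.306, -0.346, -0.323 and -0.31. IL6 is also one of the NF-kB targets above, while SIRT4, BTN2A2, UBXN4 and WARS1 are not in that list. With only 4 libraries, the distance cannot tell shared control from a similar fold change between the groups.

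The libraries held 58341297 and 52150389 counts in sg1 and 25610655 and 18950793 in control. Peaks at the start of chromosome 1 took 25.4% ± 0.0313 of the counts in sg1 and 17.9% ± 0.0775 in control (SD, n = 2), and without these the sg1 libraries were 2.25 times as deep. The part of that difference in the falls at SOD2 was not tested beyond the thinning given above. Gene-end peaks at CECR2 give no check of its deletion, since a cut site can lie outside the edited segment, and the tallest had 148 and 165 counts in sg1 and 74 and 52 in control (adjusted p = 0.770). Of 6 markers of the MDA-MB-231 lineage, all 6 had a gene-end peak, with VIM at 79.7 ± 3.29 CPM in sg1 and 85.6 ± 0.365 CPM in control, and their sums were 157 to 167 CPM in sg1 and 172 CPM in both controls. Of these, MSN (log2 fold change -0.92, adjusted p = 0.000453) and SPARC (-0.76, adjusted p = 1.08e-05) were lower and 0 higher. Epithelial markers had a peak at 4 of 5 genes (none at ESR1), summing to 46.0 to 46.8 CPM in sg1 and 39.5 to 41.3 CPM in control, haematopoietic markers at 4 of 5 (none at CD79A), summing to 79.2 to 82.5 CPM in sg1 and 90.0 to 94.2 CPM in control, and endothelial markers at 0 of 2. Among the epithelial ones GRHL2 was higher (log2 fold change 0.63, adjusted p = 0.000652), and among the haematopoietic ones CD3E (-0.26, adjusted p = 0.0145) and LAPTM5 (-0.20, adjusted p = 0.0239) were lower, calls that DESeq2 did not make for CD3E and LAPTM5. Over all genes, 8.94% of the tallest gene-end peaks were lower and 30.6% higher. The part of these marker differences in the values at SOD2 was not tested.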

How the data were processed

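LM2 cells were profiled by ATAC-seq, with 2 libraries of CECR2-deleted cells (sg1) and 2 of cells with a non-targeting guide (control). The deposited values are raw counts for each peak. Per the file headers, the authors ran featureCounts 1.6.0 on files named as cut-site files, in its single-end mode, so both ends of a fragment can be counted. The submitters' processing notes name MACS2 2.2.4, Bowtie2, Trimmomatic 0.39, SAMtools, deepTools 3.1.3, CASAVA and DESeq2 1.32 without their roles. The build, the merging of peaks and any removal of duplicates were not given in the sources used here. As a check of the build, RefSeq gene bounds (GRCh38.p14) were set against the peaks. A peak lay within 1 kb of an end for 73.4% of 20033 protein-coding genes, and for 30.9% and 31.1% after a shift of 100 kb either way. Peak positions are as deposited.

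The 109 peaks that start within 250 kb of the start of chromosome 1 were left out of library sizes and tests. They were taken for mitochondrial counts placed on chromosome 1, judged by position alone. Kept depth was 43519018 and 38924086 counts in sg1 and 21002477 and 15561701 in control, with medians of 73, 64, 35 and 26 counts per peak, so falls at peaks of few counts are the least precise. The test was run over all peaks by edgeR 4.0.16 in R 4.3.3, after filterByExpr (184717 peaks tested, 5522 too low) and TMM scaling, as a quasi-likelihood F test of group with Benjamini-Hochberg adjustment over all tested peaks at 0.05. Each SE is the absolute log2 fold change over the root of F. DESeq2 1.42.0 was an alternative. Replicates differed by a mean chi-square per peak of 2.00 in each group and by at least 8.70 between groups, so all 4 libraries were kept.

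The members, gene lists and rules were chosen with earlier results of these data known. Named were all peaks within 10 kb of a dismutase gene, in the rest of the window the 6 with the smallest p per direction and the 6 tallest, and per list the 4 members with the smallest p per direction. Other peaks of the window were added to account for every member. Counts were simulated from these libraries for this comparison (180323 peaks tested), with 49 tested peaks changed at each fold. Of these, edgeR recovered 2.04%, 14.3%, 46.9% and 91.8% at 1.25-, 1.5-, 2- and 4-fold. The simulation changed few peaks and gave every peak the same relative scatter, whereas many peaks were called in the real libraries. The adjustment was therefore stricter in the simulation, and these shares do not give the power of the real comparison. No genome sequence was used here, so sequences come from the RefSeq promoter table; it matched SOD2 and SOD3. Tables were handled in Python 3.11.15 with pandas 2.3.3, numpy 2.4.6 and scipy 1.17.1, and plotted with matplotlib 3.10.9.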

Additional observations from a re-analysis of the deposited data

How the results depend on the processing

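Around SOD2, 14 peaks were lower and 0 higher under RLE scaling, no filter on low counts, the start of chromosome 1 kept and the replicate block, and 13 with library size only. With DESeq2 9 were lower, and leaving out 1 library gave 8 to 12; within 50 kb 11 of 16 were lower, and within 200 kb 19 of 31. Same-numbered libraries did not deviate together (correlation -0.00043), and with the replicate block the tallest SOD2 peak was at -0.326 (adjusted p = 0.00109). That peak ranged from -0.355 to -0.296 with 1 library left out, and lost its call, at -0.296, without sg1 replicate 2. For SOD1 and SOD3, lower calls were 0 to 1 with 1 library left out, the 1 being the SOD3 start peak without control replicate 2 (-0.204, adjusted p = 0.0465; range -0.204 to -0.022), and 2 within 50 kb. Higher calls there were 0 with DESeq2, without a filter and after thinning, 0 to 1 with 1 library left out, and 4 within 50 kb. Over all peaks DESeq2 called 17866 lower and 8475 higher, and leaving out 1 library gave 18888 to 29467 lower and 11147 to 20243 higher. Antioxidant genes had 4 higher with DESeq2, 4 to 9 with 1 library left out, and 7 lower by the gene-end peak with the smallest p. Superoxide sources had 0 to 1 lower with 1 library left out, and NF-kB targets had 1 higher with DESeq2 and by the peak with the smallest p, and 1 to 2 with 1 library left out. Uncalled peaks that changed sign were those at 159609059 (-0.07 without control replicate 2, up to 0.82 with another library left out), 159692568 (-0.052 to 0.128 with 1 library left out), 159726486 (-0.004 thinned, -0.064 to 0.12 with 1 library left out) and 159789473 (0.015 thinned). Thinning and the internal start as the SOD2 peak of the ratio were chosen after seeing the data. The cause of these changes was not tested. The median over all peaks lay between 0.001 and 0.064 on the log2 scale under every setting.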
